A study of Mus musculus with 6 samples.

Results

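The genes of oxidative phosphorylation were compared between M0505 and STOSE cells through the 85 gene symbols, of 20405 on the array, that carry the names of the subunits of complexes I to V. They were chosen by symbol alone, as Nduf followed by a, b, c, s or v and a number for complex I (37 genes), Sdha to Sdhd for complex II (4 genes), Uqcr for complex III (8 genes), Cox4 to Cox8 for complex IV (19 genes) and Atp5 for complex V (17 genes). A probe set is a group of short probes read as 1 value, and a gene with more than 1 probe set was read from the brightest on average. M0505 is a line of mouse ovarian surface epithelial (OSE) cells, the single layer that covers the ovary, established from FVB/N mice and used here at early passage. STOSE is the transformed line that arose from M0505 during long-term adherent culture, and cells of both were grown in the same MOSE medium with serum and epidermal growth factor. Total RNA was read on whole-transcript mouse gene arrays from Affymetrix, 3 for M0505 and 3 for STOSE, and each value is a robust multi-array average (RMA) value on a log2 scale, so that a difference of 1 is 2-fold. The labels name the arrays of a line as biological replicates, but each condition is 1 line and nothing states separate isolations, so the p-values measure the spread between these cultures and extend to no other line.

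Oxidative phosphorylation takes place in the inner membrane of mitochondria. Complexes I and II pass electrons from NADH and from succinate to ubiquinone, complex III passes them on to cytochrome c, and complex IV (cytochrome c oxidase) passes them to oxygen. Complexes I, III and IV pump protons as they do so, and complex V (ATP synthase) lets the protons back to make ATP. Complex II is also an enzyme of the tricarboxylic acid cycle and is the complex whose subunits are all made from nuclear genes. The other complexes contain core subunits encoded in mitochondrial DNA, which were not analysed here. Of the 85 genes, 82 encode subunits by present knowledge. Cox4nb encodes a part of the endoplasmic reticulum membrane protein complex, Atp5s encodes a coupling factor and Atp5sl a protein of complex I assembly, and they are counted below with the complex of their symbol unless stated. Ndufa4 is counted with complex I by its name, although its protein is now placed in complex IV.

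The promoters of the genes on which the comparison turns are shown here as RefSeq gives them on GRCm38.p6, each from 250 bases before to 50 bases after the annotated start of transcription, on the strand of the gene. Cox6b2 (chr7:4753045-4753344, minus strand), Cox7a1 (chr7:30183921-30184220, plus strand) and Ndufa1 (chrX:37191189-37191488, minus strand) are the genes that were lower in STOSE by at least 2-fold. Sdha (chr13:74350191-74350490, minus strand), Sdhb (chr4:140961021-140961320, plus strand) and Sdhd (chr9:50603800-50604099, minus strand) belong to complex II, whose subunits moved in opposite directions. Sdhc is not shown. Capitals mark matches on either strand to the letters searched, which were GCGCANGCG for NRF1, CCGGAAG for GABP and other ETS factors, GGGCGG for Sp1, AANATGGCG for YY1 and TATAAA for the TATA box. NRF1, GABP and YY1 are factors known to bind promoters of nuclear genes for mitochondrial proteins, and Sp1 binds GC-rich promoters in general.
Cox6b2: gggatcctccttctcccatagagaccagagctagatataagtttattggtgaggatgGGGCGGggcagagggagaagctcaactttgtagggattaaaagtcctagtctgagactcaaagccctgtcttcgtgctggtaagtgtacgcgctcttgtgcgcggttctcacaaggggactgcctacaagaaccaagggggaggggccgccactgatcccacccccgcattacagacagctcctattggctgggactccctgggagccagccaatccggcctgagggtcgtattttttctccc
Cox7a1: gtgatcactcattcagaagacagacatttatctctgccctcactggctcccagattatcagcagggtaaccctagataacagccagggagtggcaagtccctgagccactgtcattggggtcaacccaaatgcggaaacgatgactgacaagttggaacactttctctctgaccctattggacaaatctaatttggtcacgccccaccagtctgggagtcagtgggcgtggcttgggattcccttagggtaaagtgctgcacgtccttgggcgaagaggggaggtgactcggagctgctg
Ndufa1: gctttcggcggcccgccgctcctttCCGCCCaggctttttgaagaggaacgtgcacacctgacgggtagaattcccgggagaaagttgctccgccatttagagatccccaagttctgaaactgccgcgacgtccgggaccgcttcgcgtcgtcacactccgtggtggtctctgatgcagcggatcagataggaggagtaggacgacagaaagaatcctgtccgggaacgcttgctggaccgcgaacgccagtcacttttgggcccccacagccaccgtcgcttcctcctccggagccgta
Sdha: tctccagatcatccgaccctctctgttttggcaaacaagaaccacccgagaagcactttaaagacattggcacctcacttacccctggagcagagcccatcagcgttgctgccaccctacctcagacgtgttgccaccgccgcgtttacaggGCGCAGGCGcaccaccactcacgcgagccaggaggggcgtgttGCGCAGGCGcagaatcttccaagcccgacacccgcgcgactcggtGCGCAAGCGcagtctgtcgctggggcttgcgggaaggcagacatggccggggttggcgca
Sdhb: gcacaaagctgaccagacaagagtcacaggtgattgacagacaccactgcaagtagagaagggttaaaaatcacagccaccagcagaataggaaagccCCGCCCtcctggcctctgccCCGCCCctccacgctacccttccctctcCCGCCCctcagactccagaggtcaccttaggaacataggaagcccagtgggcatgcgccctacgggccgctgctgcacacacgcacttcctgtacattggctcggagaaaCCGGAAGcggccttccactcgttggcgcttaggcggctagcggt
Sdhd: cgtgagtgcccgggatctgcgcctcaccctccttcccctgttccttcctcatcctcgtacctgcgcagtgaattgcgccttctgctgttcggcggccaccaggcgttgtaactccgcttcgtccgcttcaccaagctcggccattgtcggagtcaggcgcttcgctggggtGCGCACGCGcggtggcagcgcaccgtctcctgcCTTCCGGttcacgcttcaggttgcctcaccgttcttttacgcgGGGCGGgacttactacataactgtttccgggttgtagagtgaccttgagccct

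Sdha held 3 matches to NRF1 and none of the other letters. Sdhd held 1 match each to NRF1, GABP/ETS and Sp1. Sdhb held 1 match to GABP/ETS and 3 to Sp1. Cox6b2 and Ndufa1 held 1 match each to Sp1, and Cox7a1 held none of the letters searched. A protein-coding window was at hand for 67 of the 82 subunit genes and for 17492 genes in all. NRF1 letters were present for 20 of the 67 (29.9%) and for 9.63% of all, GABP/ETS letters for 16 (23.9%) and 12.9%, and YY1 letters for 10 (14.9%) and 3.64%. Sp1 letters were present for 27 (40.3%) against 49.2% of all, and TATA letters for 7 (10.4%) against 14.8%. The median GC content was 57.3% for windows of the subunit genes and 56.3% for all windows. Matches of different motifs may overlap and each was counted. A match describes the letters of the window and shows no binding.

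The array values were checked before the subunits were read. The markers of ovarian surface epithelium were lower in STOSE for 7 of 8 genes and higher for 0, and their mean level was 11.39 to 11.48 in M0505 arrays and 9.60 to 9.80 in STOSE arrays. Krt8 and Krt19, keratins of simple epithelia, had log2 fold changes of -4.55 and -5.56, and Krt7 had -1.03. The 9 markers of leukocytes, endothelium and granulosa cells had a mean level of 5.82 to 5.90 in M0505 and 4.90 to 5.01 in STOSE, with 2 called higher, 4 called lower and 4 below background in both lines. Of all genes, 31.6% were called higher and 24.8% lower. Cd68, a protein of macrophage lysosomes, fell by 2.82 and Kdr, a receptor of endothelial cells, by 5.17. The mean levels of Cd68 and Kdr were 9.78 and 9.58 in M0505 and 6.96 and 4.41 in STOSE. Among the other leukocyte and endothelial markers, Cd3e and Cdh5 rose by 0.22 and 0.20. Their mean levels, 5.09 and 4.81 in M0505 and 5.31 and 5.01 in STOSE, were close to background. The granulosa gene Foxl2 and the endothelial gene Pecam1 fell by 0.37 and 0.36, and Ptprc, Fshr and Cyp19a1 were not called. Pecam1, Ptprc, Fshr and Cyp19a1 are the 4 below background. Fewer cells of a type and less RNA per cell cannot be told apart in RNA of whole cultures, and the part of these marker shifts in the results below was not tested. Because RMA scales the arrays to each other, total RNA per cell is not measured by these values. Over the genes used here the median level was 6.46 to 6.49 in M0505 arrays and 6.25 to 6.29 in STOSE arrays, although the median of the fold changes of single genes was above 0.

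The subunit genes were abundant, and the median size of their changes was near that of all genes. The median level of the 85 genes over the 6 arrays was 10.07, against 6.42 for all genes. Only Cox7b2, a testis isoform in complex IV, was below background in both lines, where background is the 95th percentile (4.74) of 1134 olfactory receptor probe sets. Log2 fold changes of STOSE minus M0505 ran from -2.14 for Cox6b2 to 0.98 for Sdhb. In size, 77 of the 85 were under 0.5, a share that was not counted for all genes. The median size without regard to sign was 0.22 for the subunit genes and 0.25 for all genes. With sign, the median was -0.10 for the subunit genes and 0.08 for all genes. Above 0 were 31 of the 85, against 12387 of all 20405 genes.

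By limma with Benjamini-Hochberg adjustment over the 20405 genes, and at an adjusted p under 0.05, 19 of the 85 genes (22.4%) were higher in STOSE, 30 (35.3%) were lower and 36 were not called. The background for these counts was 31.6% of all genes higher and 24.8% lower. With a fold change of at least 2 required as well, 0 of the 85 were higher and 3 were lower, against 4.9% and 7.59% of all genes, and no member reached a 2-fold rise at any p. The 3 were Cox6b2, Cox7a1 and Ndufa1. Of these 3, Ndufa1 was the nearest to the 2-fold limit, at 2.47-fold lower. Uqcr11 and Sdhb were just outside the limit, at 1.99-fold lower and 1.98-fold higher. Without the 3 genes that are no subunits, the counts were 18 higher, 29 lower and 35 not called of 82. The plot of log2 fold changes by complex shows the genes singly.

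**Figure D1:**
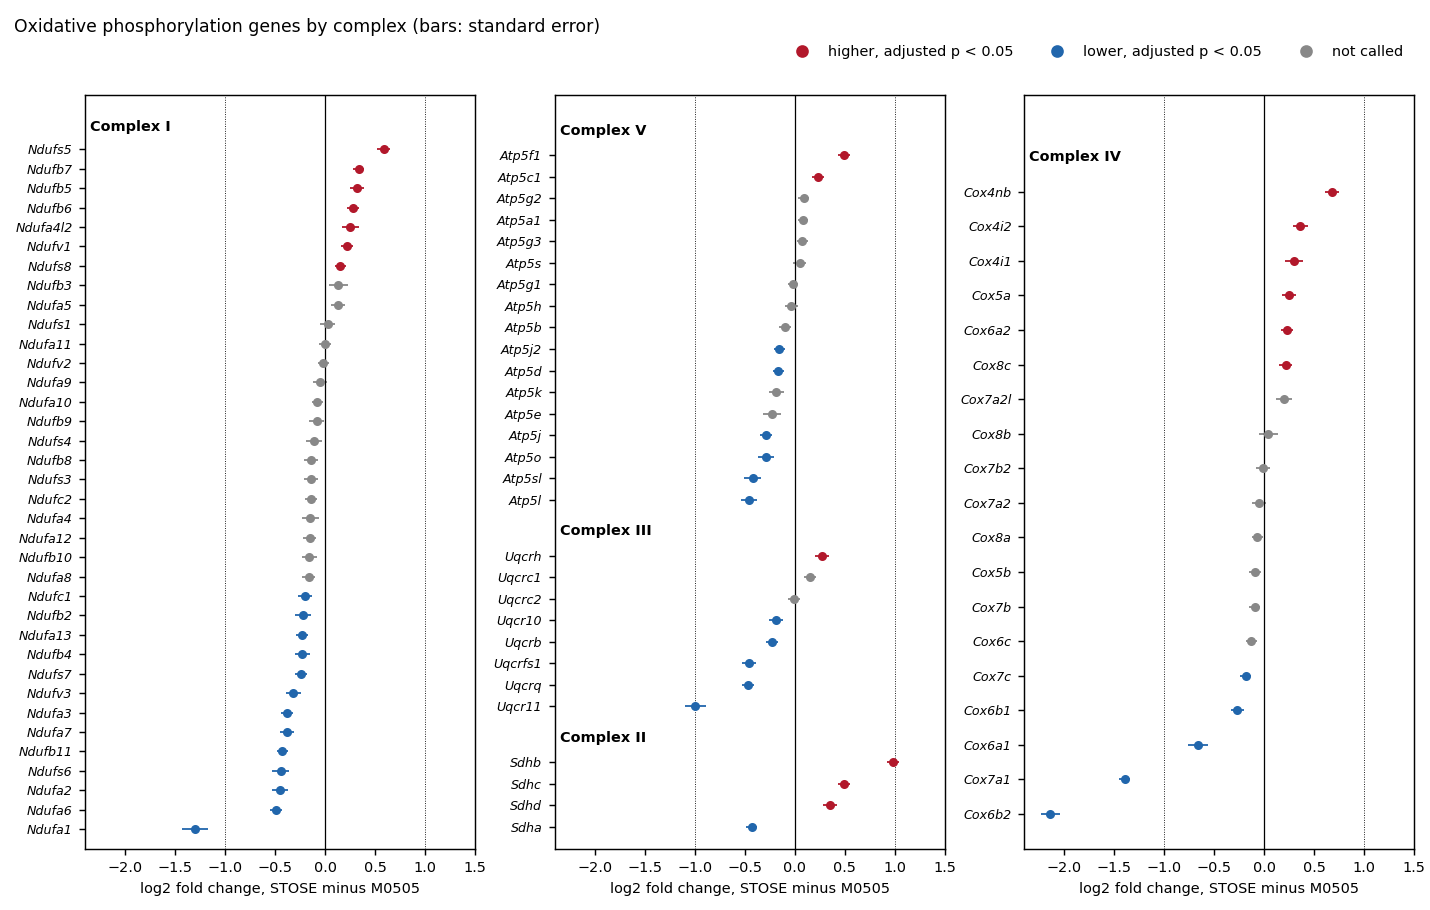
Log2 fold change of STOSE minus M0505 (horizontal axis) of single genes, grouped by complex and ordered by value, with bars for the standard error, filled red where higher, blue where lower and grey where not called at an adjusted p under 0.05; dotted lines mark 2-fold. Most points lie close to 0, Cox6b2 (-2.14), Cox7a1 (-1.40) and Ndufa1 (-1.30) lie past the 2-fold line, and complex II has Sdha on the left of 0 and Sdhb, Sdhc and Sdhd on the right.

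The calls were then counted by complex, beside 31.6% of all genes higher and 24.8% lower. In complex I, 7 of 37 were higher and 13 lower, with a median of -0.14. In complex II, 3 of 4 were higher and 1 lower, with a median of 0.42. In complex III, 1 of 8 was higher and 5 lower, with a median of -0.21. In complex IV, 6 of 19 were higher (31.6%) and 5 lower (26.3%), shares near those of all genes, with a median of -0.06. Without M0505 replicate 2 its count higher was 3. In complex V, 2 of 17 were higher and 6 lower, with a median of -0.10. No test was made between the complexes, since their genes are not replicates of a condition.

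The mean over the genes of a complex, each centred on its own mean over the 6 arrays, was also read array by array. For complex II it was -0.243, -0.132 and -0.150 in the M0505 arrays and 0.205, 0.161 and 0.159 in the STOSE arrays. For complex III it was 0.060, 0.092 and 0.209 in M0505 and -0.134, -0.080 and -0.147 in STOSE. The lines did not overlap in complexes I to IV. M0505 was the lower line in complex II and the higher line in complexes I, III and IV. The mean of complex IV includes the large falls of Cox6b2 (-2.14) and Cox7a1 (-1.40) and was not read without them. Of its 19 genes, 8 had a log2 fold change above 0 and 11 below. For complex V the values were -0.005, 0.036 and 0.087 in M0505 and -0.002, -0.036 and -0.079 in STOSE, so the lines overlapped.

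**Figure D2:**
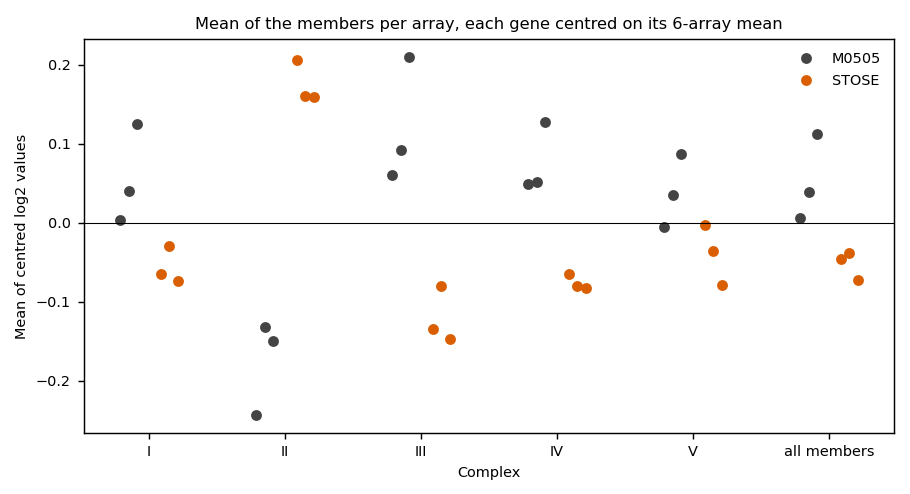
Mean centred log2 value (vertical axis) of the genes of each complex and of all 85 genes in each array, with M0505 arrays in grey and STOSE arrays in orange, in replicate order from left to right within a line. Complex II lies below 0 in M0505 and above 0 in STOSE, and complexes I, III and IV lie the other way round. The mean of complex IV includes Cox6b2 and Cox7a1, the largest falls of the 85 genes. The lines overlap in complex V, and M0505 replicate 3 is the highest M0505 array in complexes I, III, IV and V.

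M0505 replicate 3 stood apart from the other M0505 arrays in these genes. Over all 85 genes the centred means of the M0505 arrays were 0.005, 0.039 and 0.112, a spread about as wide as the difference between the lines, which was -0.104. This array had the highest of the 3 M0505 values for 60 of the 85 genes (70.6%) and for 26.0% of all genes. Without it, 19 genes were called higher and 22 lower, in place of 19 and 30, and the median moved from -0.10 to -0.06. The count lower fell nearly as far, to 23, without STOSE replicate 2 or without STOSE replicate 3, so that fall was not particular to this array. In complex V, where the lines overlapped, the count called lower fell from 6 to 3 without M0505 replicate 3. It fell to 4 without M0505 replicate 2, STOSE replicate 2 or STOSE replicate 3. Of the 49 genes called, 36 kept their call without any single array, and the 13 that did not were at most 0.29 in size. They were Ndufa4l2, Ndufb2, Ndufb4, Ndufc1 and Ndufs8 in complex I, Uqcr10 in complex III, Cox4i1, Cox5a, Cox7c and Cox8c in complex IV, and Atp5d, Atp5j2 and Atp5o in complex V.

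The largest changes were in tissue isoforms of complex IV. Cytochrome c oxidase has several subunits made in a widespread form and in forms typical of testis, heart and skeletal muscle or lung. Cox6b2, the form of subunit 6B known from testis, read 7.76, 7.47 and 7.62 in M0505 and 5.62, 5.45 and 5.36 in STOSE. Every STOSE array was below every M0505 array. The means were 7.62 ± 0.15 and 5.48 ± 0.13 (SD, n = 3), a log2 fold change of -2.14 (SE 0.10), or 4.41-fold lower, with an adjusted p of 4.84e-07 by limma. Leaving out any array gave -2.21 to -2.07. Cox7a1, the heart and skeletal muscle form of subunit 7A, read 7.76, 7.66 and 7.69 in M0505 and 6.31, 6.32 and 6.28 in STOSE. Its arrays were tightly grouped in each line, and it was 2.64-fold lower in STOSE (log2 fold change -1.40, SE 0.06, adjusted p 2.99e-07 by limma).

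The other tissue isoforms of complex IV did not follow these falls. Cox4i2, the lung form of subunit 4 that responds to oxygen, rose by 0.36 (SE 0.08) from 5.85, 5.73 and 5.92 to 6.26, 6.08 and 6.23. Cox6a2, the heart and muscle form of subunit 6A, rose by 0.23, from a range of 5.37 to 5.47 to a range of 5.59 to 5.69. Cox8c, a testis form, rose by 0.21, and its call was lost without M0505 replicate 2 or without STOSE replicate 3. The values of these 3 lay between 5.24 and 6.26, not far above the background of 4.74. Cox8b, the muscle form of subunit 8, read 4.58 to 4.89 in M0505 and 4.67 to 4.90 in STOSE, with overlapping arrays. Cox7b2 lay at 3.54 and 3.52 on average, under the background.

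Among the 10 widespread subunits of complex IV, 2 were higher, 3 lower and 5 not called. The shares of all genes were 31.6% higher and 24.8% lower, and no test was made against them. Cox6a1, the widespread form of subunit 6A, read 10.56, 10.66 and 10.93 in M0505 and 10.13, 10.02 and 10.02 in STOSE. It was 1.58-fold lower (log2 fold change -0.66, SE 0.10, adjusted p 0.000468 by limma), and its M0505 values were the more scattered. Cox6b1 fell by 0.27 and Cox7c by 0.19. Cox4i1, the widespread form of subunit 4, rose by 0.29, with M0505 replicate 3 at 9.49 close to the STOSE range of 9.57 to 9.61, and its call was lost without any of M0505 replicate 1, M0505 replicate 2 and STOSE replicate 2. Cox5a rose by 0.25. Cox5b, Cox6c, Cox7a2, Cox7b and Cox8a had values from -0.13 to -0.06 and were not called. Cox7a2l, which takes part in joining complexes III and IV into supercomplexes, had 0.19 and was not called (adjusted p 0.0758 by limma). Cox4nb, which is no subunit, had the highest value among the 19 genes counted with complex IV, 0.68 (SE 0.07).

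**Figure D3:**
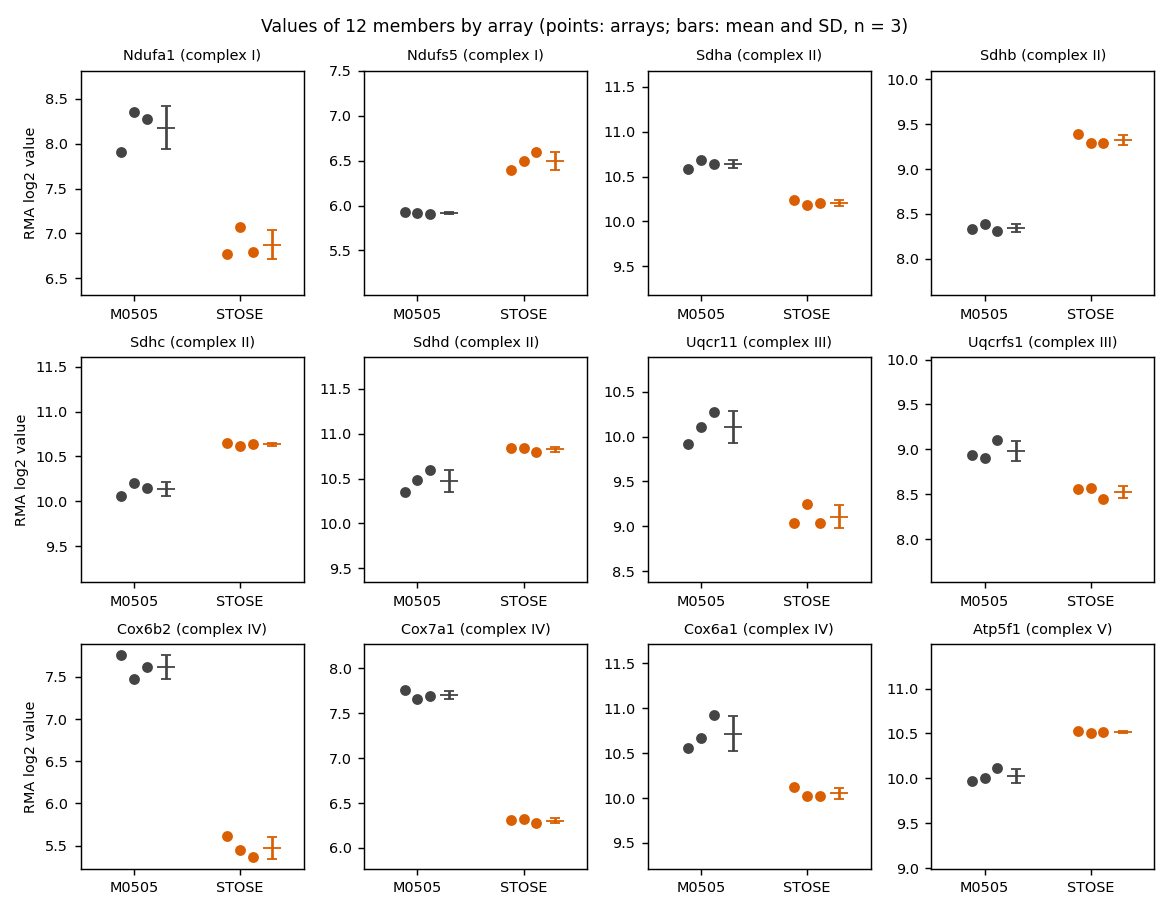
RMA log2 value (vertical axis) of 12 genes in each array, M0505 in grey and STOSE in orange, with the mean and SD (n = 3) to the right of the points. All 12 are genes called higher or lower, so the lack of overlap between the lines in their panels follows from the choice of genes. The arrays of other members, such as Ndufa9 and Atp5h, overlap. Cox6b2 falls from between 7.47 and 7.76 to between 5.36 and 5.62.

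Whether a tissue form changed unequally with its counterpart was read from the difference between both values in each array, for 8 pairs. The level of such a difference depends on the probes, and its change between lines is what was compared. Cox6b2 minus Cox6b1 moved by -1.87, from -3.47, -3.72 and -3.62 to -5.43, -5.47 and -5.51. Cox7a1 minus Cox7a2 moved by -1.34, from -2.83, -3.04 and -3.08 to -4.25, -4.32 and -4.41. Cox6a2 minus Cox6a1 moved the other way, by 0.89, since the widespread form fell and the muscle form rose. Ndufa4l2, a relative of Ndufa4 known to be induced by low oxygen, moved by 0.40 against it. Atp5g1 moved by -0.09 against Atp5g3. In these 5 pairs the lines did not overlap, and the two-sided exact permutation test gave p = 0.1, the smallest that 3 arrays against 3 allow, or 0.16 after adjustment over the 8 pairs.

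In the other 3 pairs the lines overlapped. Cox4i2 minus Cox4i1 moved by 0.07 (exact permutation p = 0.5), from a range of -3.58 to -3.35 to a range of -3.52 to -3.33, with both forms of subunit 4 higher in STOSE, by 0.36 and 0.29. Cox8b minus Cox8a moved by 0.11 (exact permutation p = 0.5), and Atp5g2 minus Atp5g3 by 0.01 (exact permutation p = 0.6). Atp5g1, Atp5g2 and Atp5g3 encode the same mature protein of the c ring of ATP synthase, and none of them was called.

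All 4 genes of complex II were called, 3 higher and 1 lower. Sdha, the flavoprotein that oxidizes succinate, read 10.59, 10.68 and 10.64 in M0505 and 10.24, 10.18 and 10.20 in STOSE. Sdhb, the iron-sulfur protein bound to it, read 8.33, 8.39 and 8.31 in M0505 and 9.39, 9.29 and 9.29 in STOSE. The arrays of the lines were far apart in both genes, and they moved in opposite directions. Sdha was 1.35-fold lower (log2 fold change -0.43, SE 0.06, adjusted p 0.000245 by limma), and Sdhb was 1.98-fold higher (0.98, SE 0.06, adjusted p 2.56e-06 by limma). Sdhc and Sdhd anchor these proteins in the membrane and help to bind ubiquinone. Sdhc rose by 0.50 (SE 0.06), from 10.06, 10.21 and 10.15 to 10.64, 10.62 and 10.64, and Sdhd by 0.35 (SE 0.07), from 10.35, 10.48 and 10.59 to 10.84, 10.84 and 10.80. All 4 calls held without any single array, and leaving out each array gave 0.95 to 1.01 for Sdhb and -0.45 to -0.41 for Sdha. Of the promoters printed, that of Sdha held 3 matches to NRF1 and that of Sdhd held 1. Those of Sdhb and Sdhd each held GABP/ETS letters, which Sdha did not, and no window was at hand for Sdhc. A link between these letters and the directions was not tested.

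In complex III, 4 of the 5 small subunits and the Rieske protein were lower, and the core proteins were not called. Of all genes, 24.8% were lower. Cytochrome c1 (Cyc1), a catalytic subunit whose symbol is outside the rule, rose by 0.49. Uqcr11, the smallest subunit, read 9.92, 10.11 and 10.28 in M0505 and 9.03, 9.25 and 9.04 in STOSE. It was 1.99-fold lower (log2 fold change -0.99, SE 0.10, adjusted p 5.7e-05 by limma), and its other probe set gave -1.03. Uqcrfs1, the Rieske iron-sulfur protein, read 8.94, 8.90 and 9.10 in M0505 and 8.56, 8.57 and 8.44 in STOSE, a fall of 0.46 (SE 0.07). Uqcrq, a ubiquinone-binding subunit, fell by 0.47 (SE 0.06), Uqcrb by 0.23 and Uqcr10 by 0.19. The call of Uqcr10 (adjusted p 0.0457 by limma) was lost on leaving out any array other than M0505 replicate 1. Uqcrh, the hinge protein at cytochrome c1, was the 1 small subunit that rose, by 0.27 (SE 0.07). The core proteins Uqcrc1 (0.15, adjusted p 0.0648) and Uqcrc2 (-0.01, adjusted p 0.877 by limma) were not called, and the second probe set of Uqcrc2 had the opposite sign, at 0.15.

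In complex I the core and accessory subunits were counted apart, beside 31.6% of all genes higher and 24.8% lower, and no test was made between them. Of the 7 nuclear core subunits, which carry the flavin and the iron-sulfur clusters, 2 were higher (28.6%), 1 lower (14.3%) and 4 not called, with a median of 0.02. Of the 30 accessory genes, 5 were higher (16.7%), 12 lower (40.0%) and 13 not called, with a median of -0.15. The core subunits that were called were Ndufv1, which binds NADH, at 0.22 (SE 0.06), Ndufs8 at 0.15 (SE 0.05) and Ndufs7 at -0.24 (SE 0.06). The call of Ndufs8 was lost without any one of the 6 arrays. Ndufs1, the largest core subunit, differed by 0.02 and was not called.

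The largest fall in complex I was that of Ndufa1, a small membrane subunit on the X chromosome that is needed to assemble the complex. It read 7.91, 8.35 and 8.28 in M0505 and 6.77, 7.07 and 6.79 in STOSE, with no overlap. It was 2.47-fold lower (log2 fold change -1.30, SE 0.13, adjusted p 4.51e-05 by limma), and leaving out any array gave -1.44 to -1.21. Ndufb11 and Cox7b, the other subunit genes on the X chromosome, had -0.43 and -0.10, of which Ndufb11 was called. Ndufa6 was next, with a fall of 0.50 (SE 0.06) from a range of 9.21 to 9.31 to a range of 8.72 to 8.82. Ndufa2, Ndufs6, Ndufa7, Ndufa3 and Ndufv3 fell by 0.32 to 0.45. Ndufb4, Ndufa13, Ndufb2 and Ndufc1 fell by 0.20 to 0.23, and of these Ndufa13 kept its call without any single array.

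The accessory subunit with the largest rise was Ndufs5, which lies on the intermembrane side. It read 5.92, 5.92 and 5.91 in M0505 and 6.40, 6.50 and 6.60 in STOSE, a rise of 0.58 (SE 0.07, adjusted p 0.000104 by limma). Ndufb7, also on that side, read 8.15 in all 3 M0505 arrays and 8.44 to 8.53 in STOSE, a rise of 0.34 (SE 0.06). Ndufb5 and Ndufb6 rose by 0.32 and 0.28. Ndufa4l2 rose by 0.25 (SE 0.08), at levels of 4.69 to 4.85 in M0505 that touch the background of 4.74, and its call was lost without 3 of the arrays in turn, M0505 replicate 2, STOSE replicate 1 and STOSE replicate 2. The other accessory genes, Ndufa4 among them at -0.15, lay between -0.16 and 0.13 and were not called.

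In complex V the catalytic subunits did not pass the test. Atp5a1 and Atp5b, the alpha and beta subunits on which ATP is made, differed by 0.08 (SE 0.05) and -0.10 (SE 0.06), with adjusted p of 0.229 and 0.173 by limma. Of the 5 genes of the head and central stalk, the gamma subunit Atp5c1 rose by 0.23 (SE 0.06) and the delta subunit Atp5d fell by 0.17, and Atp5e was not called. All 3 genes of the c ring lay between -0.02 and 0.09 and were not called.

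The peripheral stalk, which holds the head still, contained the largest rise and 2 falls. Atp5f1, its subunit b, read 9.97 to 10.11 in M0505 and 10.51 to 10.53 in STOSE, with no overlap. It was 1.40-fold higher (log2 fold change 0.49, SE 0.06, adjusted p 0.00017 by limma), and its other probe set gave 0.60. Atp5o, which joins stalk and head, and Atp5j, also called F6, both fell by 0.29, while Atp5h was not called at -0.03. Of the small membrane subunits, Atp5l read 9.32, 9.25 and 9.46 in M0505 and 8.96, 8.93 and 8.76 in STOSE, a fall of 0.46 (SE 0.08), and Atp5j2 fell by 0.16. Atp5sl fell by 0.42 and Atp5s differed by 0.05, and neither is a subunit of the synthase.

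The chromosomes that carry the subunit genes had different medians over all their genes. They ran from -0.05 on chromosome 10 to 0.18 on chromosomes 3 and 4. All 4 subunit genes of chromosome 4, Ndufb6, Ndufs5, Sdhb and Uqcrh, were higher in STOSE, against 31.6% of all genes on the array. The share higher among the 1183 genes placed on that chromosome was not counted, and Sdhb was 0.81 above their median. Other chromosomes did not show the same picture. On chromosome 3, with the same median, Atp5f1 and Ndufb5 were higher (0.49 and 0.32) and Ndufc1 was lower (-0.20). On chromosome 5, Cox6a1 and Atp5j2 were lower (-0.66 and -0.16) and no member was higher. By karyotype the paper found both lines aneuploid. Every M0505 cell it examined had a terminal deletion of chromosome 4, and every STOSE cell had an addition at its end. The paper also described losses of whole chromosomes in both lines. A link between any of these changes and the subunit genes was not tested. On chromosome 7, where the median was 0.05, there were 9 members and among them Cox6b2 and Cox7a1. The part of the chromosome shifts in single genes was not tested.

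The promoter letters were set beside the calls. NRF1 letters were present for 3 of 12 higher, 8 of 26 lower and 9 of 29 uncalled subunit genes with a window. GABP/ETS letters were present for 6 of 12, 5 of 26 and 5 of 29, and YY1 letters for 0 of 12, 7 of 26 and 3 of 29. Sp1 letters were present for 5 of 12, 9 of 26 and 13 of 29, and TATA letters for 1 of 12, 4 of 26 and 2 of 29. Over all genes called on the array, NRF1 letters were present for 12.3% of those higher and 14.3% of those lower. GABP/ETS letters were present for 16.4% and 17.0%, YY1 letters for 5.06% and 4.60%, Sp1 letters for 60.4% and 68.9%, and TATA letters for 11.1% and 8.69%. These are counts over few genes without a test. By complex, NRF1 letters were present for 8 of 32 genes in I, 2 of 3 in II, 2 of 5 in III, 1 of 13 in IV and 7 of 14 in V.

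The genes that build, supply and regulate the complexes were read in lists of their own. Of the 32 assembly factors of complexes II to V found of 37 listed, 15 were higher and 10 lower, with a median of 0.10. Cox17, the copper chaperone for cytochrome c oxidase, read 7.09, 7.11 and 7.31 in M0505 and 5.73, 5.86 and 5.58 in STOSE, and was 2.73-fold lower (-1.45, SE 0.09). Cox10, which makes heme O, the precursor of the heme A of the same enzyme, went the other way. It read 8.12, 7.99 and 7.87 in M0505 and 9.21, 9.05 and 9.06 in STOSE, and was 2.16-fold higher (1.11, SE 0.08). Cox15, which makes heme A from heme O, differed by 0.01 and was not called. Sdhaf4, an assembly factor of Sdha, read 6.80, 6.82 and 6.86 in M0505 and 5.80, 5.91 and 5.67 in STOSE, and was 2.05-fold lower (-1.04, SE 0.07). Of the other assembly factors of complex II, Sdhaf3, which serves Sdhb, fell by 0.49, and Sdhaf1 and Sdhaf2 had -0.03 and -0.09 and were not called. Of the 14 assembly factors of complex I, 6 were higher, 5 lower and 0 past 2-fold.

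Coenzyme Q, or ubiquinone, carries electrons from complexes I and II to III, and of 12 genes for its synthesis and use 4 were higher and 4 lower, with a median of 0.08. The count higher was 2 without M0505 replicate 2, STOSE replicate 1 or STOSE replicate 2, and 7 after a further quantile normalization. Pdss1, which makes its side chain together with Pdss2, read 7.29, 6.85 and 6.84 in M0505 and 9.16, 9.03 and 8.96 in STOSE, 4.16-fold higher (2.06, SE 0.12, adjusted p 2.41e-06 by limma). Pdss2 differed by 0.08 and was not called. Coq10a, a ubiquinone-binding protein, was 2.34-fold lower (-1.23, SE 0.07), and the kinase-like Adck3 was 2.25-fold lower (-1.17, SE 0.13). Of 7 further subunits and cytochrome c genes, 2 were higher and 3 lower, and Cyc1 (cytochrome c1) and Cycs (cytochrome c) rose by 0.49 and 0.19. Cytochrome c1 is a catalytic subunit of complex III whose symbol falls outside the rule, and cytochrome c takes electrons from it. The count higher was 1 without M0505 replicate 2, STOSE replicate 1 or STOSE replicate 2.

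Of 18 genes of the tricarboxylic acid cycle and pyruvate entry, 6 were higher and 4 lower, with a median of 0.01. The count lower was 2 without M0505 replicate 2, M0505 replicate 3, STOSE replicate 2 or STOSE replicate 3, and also where each array was centred on its median. Idh2, the NADP-linked isocitrate dehydrogenase of mitochondria, read 8.16, 7.68 and 7.90 in M0505 and 9.51, 9.44 and 9.39 in STOSE, 2.89-fold higher (1.53, SE 0.11). Of 16 genes that maintain and transcribe mitochondrial DNA, 6 were higher and 4 lower. Top1mt, the mitochondrial topoisomerase, was 2.41-fold higher (1.27, SE 0.12), whereas Tfam, which packages the mitochondrial genome, fell by 0.48.

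Of 12 regulators of nuclear genes for mitochondria, 4 were higher, 0 lower by limma and 8 not called, with 1 lower at an unadjusted p under 0.05 and 0 by the methods' t-test without adjustment. Without M0505 replicate 3 or without STOSE replicate 1, 1 was lower. Pprc1, a coactivator related to PGC-1, read 7.50, 7.29 and 7.17 in M0505 and 8.65, 8.32 and 8.28 in STOSE, 2.14-fold higher (1.10, SE 0.12). Myc was also called higher, with a rise of 0.66 (SE 0.11). For the factors whose letters were searched, Nrf1 rose by 0.53 (SE 0.06) and the GABP subunit Gabpb1 by 0.65 (SE 0.08), while its partner Gabpa had -0.18 and Yy1 had 0.04, both not called. Ppargc1a, the coactivator PGC-1 alpha, differed by -0.11 (SE 0.20) with STOSE values of 6.71, 6.09 and 5.80 that overlapped M0505. Each of these lists was read by its counts beside the 31.6% higher and 24.8% lower of all genes, and the plot of the related genes shows their values.

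**Figure D4:**
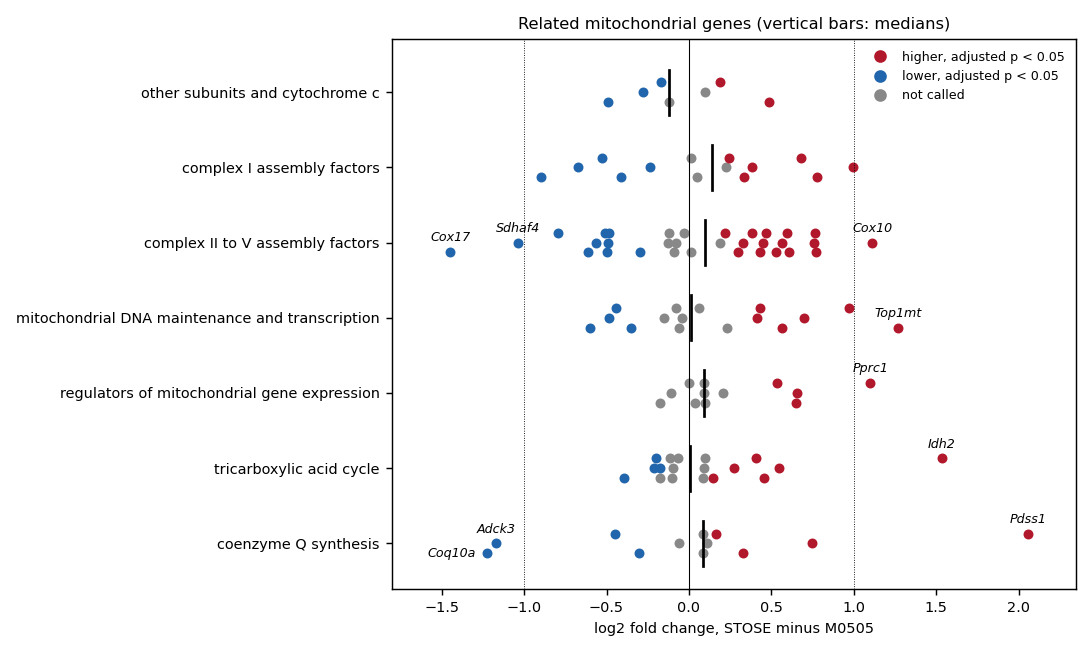
Log2 fold change of STOSE minus M0505 (horizontal axis) of the genes of 7 lists of mitochondrial genes outside the 85, 1 point a gene, coloured by call at an adjusted p under 0.05, with a black bar at the median of each list, dotted lines at 2-fold and names for genes past it. The medians lie between -0.12 and 0.14, and Pdss1 (2.06) and Cox17 (-1.45) are the farthest points on either side.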

How the data were processed

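RNA of M0505 (3 arrays) and STOSE (3 arrays) cells was hybridized to Mouse Gene 1.0 ST whole-transcript arrays (Affymetrix). The authors normalized by robust multi-array average (RMA; Affymetrix Expression Console per the submitters' processing notes) and deposited log2 values, 1 column per array. Their columns of line means and linear fold changes were not used. Software versions, annotation release and build are not given in the sources used here. 0 columns of values were left unmatched. Arrays give no read depth, so the number of arrays sets the precision.

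Of 28944 probe sets, 23530 carried a symbol and stood for 20405 genes. Of the 85 members, 19 had several probe sets (112 in all), and in 2 (Atp5h and Uqcrc2, neither called) another probe set had the opposite sign. Lines were compared in R 4.3.3 by a linear model without covariates and moderated statistics (limma 3.58.1), with Benjamini-Hochberg adjustment over all 20405 genes, and a gene was called at an adjusted p under 0.05. The code was tested on simulated data with 200 changed genes. Isoform pairs were compared by exact permutation in scipy 1.17.1. Chromosomes and promoters came from RefSeq tables on GRCm38.p6, matched by symbol or a synonym unique to 1 gene (all 85 members matched), and list genes under older symbols were found the same way.

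The members and lists were chosen with earlier results of these data known, and the background from olfactory receptors follows that earlier work. Genes named singly were, by rule, the members past 2-fold, the 2 highest and 2 lowest called members per complex, the isoforms, the main catalytic subunits, and list genes past 2-fold. Other members are named to account for them, except that a single result is not reported here and is left out of the plot of single genes. Tfam, Nrf1, Gabpa, Gabpb1, Yy1, Ppargc1a and Myc were named outside the rule after their values were seen. So were Cyc1, Cycs, Pdss2, Cox15, Sdhaf1, Sdhaf2, Sdhaf3 and the marker genes. The alternatives were other scalings, filters, probe set rules, tests, a replicate block, each array left out, other complex assignments and subtraction of chromosome medians. Leaving out the 3 genes that are no subunits was added after seeing the data.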

Additional observations from a re-analysis of the deposited data

How the results depend on the processing

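No called member named by rule and no median of a complex changed sign under the alternatives run. After subtracting the chromosome medians, the median log2 fold change was -0.16 over all members, -0.20 in complex I, 0.35 in complex II, -0.29 in complex III and -0.11 in complex IV. A further quantile normalization gave 1 member higher at 2-fold in place of 0, and in complex IV 9 lower and a median of -0.094. Leaving out the dimmest 50% of genes gave 2 higher in complex III, and in complex IV 3 higher and a median of -0.10, with fewer members tested. The methods' t-test without adjustment gave 2 higher in complex III and 4 higher in complex V, and limma with robust estimation and a trend in intensity gave 2 higher in complex III. Leaving out each array gave 0 to 1 members higher at 2-fold, medians of 0.37 (without M0505 replicate 1) to 0.46 in complex II and -0.10 (without M0505 replicate 1) to -0.042 in complex IV, 3 (without M0505 replicate 2) to 6 higher in complex IV, and 3 (without M0505 replicate 3) to 7 lower in complex V. The cause of these moves was not tested.

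The replicate numbers of the labels are shared by the lines, but the deviations of same-numbered arrays from their line means correlated at 0.26, 0.04 and 0.25 across genes, so the numbers were not taken to pair the arrays. With a replicate block, 18 members were higher and 27 lower. For the genes named by rule, 708 values under an alternative kept direction and side of the threshold, 12 newly passed it and 19 no longer did. Signal over background limits Cox7b2, Cox8b and Ndufa4l2.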
